A study of Homo sapiens with 12 samples.

Results

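The transcripts of 10 demethylases that need molecular oxygen were followed in KMS11 cells in which STK17B, a kinase related to the death-associated protein kinases, was silenced, overexpressed or inhibited. They were chosen by symbol: KDM3A, KDM4A, KDM4B, KDM4C, KDM5B, KDM6A, KDM6B, TET1, TET2 and TET3. All 10 were among the 29607 genes of the table and all 10 passed the filter on low values, as did 12731 genes in all. KMS11 is an established human multiple myeloma line that carries the t(4;14) translocation. The labels give 6 groups of 2 libraries: untreated cells with a control hairpin and a wild-type genotype (shControl), untreated cells with the hairpin sh1 or sh2 against STK17B, cells of wild-type genotype given an unnamed STK17B inhibitor at an unstated dose and time (inhibitor), untreated wild-type cells with an empty vector (Vector) and untreated cells with STK17B overexpression (overexpression). No group is labelled as vehicle, so a solvent effect, or one through another target of the inhibitor, cannot be told apart from an effect through STK17B. The inhibitor libraries are not labelled with a hairpin, so an effect of the control hairpin in shControl cannot be told apart either. The control columns of the table carry no group name, and their numbers, which match those of shControl and Vector libraries in the labels, were used to assign them, which is an inference. The labels do not say whether the replicates were grown apart, so p-values measure the spread between these libraries, which may be technical.

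These enzymes share a catalytic core that binds iron and uses oxygen and 2-oxoglutarate, and they release succinate and carbon dioxide. KDM3A removes methyl groups from lysine 9 of histone H3 (H3K9), KDM4A, KDM4B and KDM4C act on trimethylated H3K9 and on H3K36, KDM5B acts on H3K4, and KDM6A and KDM6B act on H3K27. TET1, TET2 and TET3 oxidise 5-methylcytosine in DNA. Low oxygen slows several of these enzymes, and KDM3A and KDM4B are textbook targets of hypoxia-inducible factor (HIF), the transcription factor that accumulates when oxygen is scarce. Values below are transcript levels in TPM, which scale each library to the same total of transcripts and which say nothing of enzyme activity or of histone or DNA methylation.

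The sequence before the start of 5 of the genes is shown because KDM3A, KDM4B, KDM4C, KDM5B and KDM6B moved in opposite directions with the inhibitor and with overexpression. Each line gives the 250 bases before a start listed by RefSeq (GRCh38.p14), 5′ to 3′ on the gene's strand, with the letters ACGTG or GCGTG on either strand, the core of the HIF response element, in capitals.
KDM3A, chr2:86441121-86441370, plus strand: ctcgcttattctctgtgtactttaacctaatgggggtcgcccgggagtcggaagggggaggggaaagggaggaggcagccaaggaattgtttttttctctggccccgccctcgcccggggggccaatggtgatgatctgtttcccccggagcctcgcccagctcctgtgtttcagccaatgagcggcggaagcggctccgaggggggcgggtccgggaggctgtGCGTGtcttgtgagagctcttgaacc
KDM4B, chr19:4968863-4969112, plus strand: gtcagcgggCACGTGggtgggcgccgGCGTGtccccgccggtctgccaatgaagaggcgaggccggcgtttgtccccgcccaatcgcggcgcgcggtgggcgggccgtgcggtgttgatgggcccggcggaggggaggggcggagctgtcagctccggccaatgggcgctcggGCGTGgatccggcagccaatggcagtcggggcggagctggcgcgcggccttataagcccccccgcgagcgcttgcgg
KDM4C, chr9:6757723-6757972, plus strand: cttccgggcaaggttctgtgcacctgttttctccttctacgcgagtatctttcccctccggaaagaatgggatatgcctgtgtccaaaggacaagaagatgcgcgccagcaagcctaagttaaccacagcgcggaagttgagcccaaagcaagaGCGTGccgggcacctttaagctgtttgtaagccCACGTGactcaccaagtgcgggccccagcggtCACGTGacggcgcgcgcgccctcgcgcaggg
KDM5B, chr1:202808422-202808671, minus strand: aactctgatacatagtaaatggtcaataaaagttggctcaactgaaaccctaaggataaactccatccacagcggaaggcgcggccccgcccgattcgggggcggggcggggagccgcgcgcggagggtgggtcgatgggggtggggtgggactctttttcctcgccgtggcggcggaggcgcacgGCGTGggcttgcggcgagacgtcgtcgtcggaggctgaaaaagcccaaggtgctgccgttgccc
KDM6B, chr17:7833967-7834216, plus strand: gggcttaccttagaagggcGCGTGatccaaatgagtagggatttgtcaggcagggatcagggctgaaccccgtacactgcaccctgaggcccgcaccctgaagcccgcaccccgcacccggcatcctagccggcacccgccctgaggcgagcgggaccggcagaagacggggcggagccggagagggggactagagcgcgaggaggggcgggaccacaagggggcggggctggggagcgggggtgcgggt
KDM3A and KDM5B each held a single GCGTG, whose first base lay at position -26 and -64 from the listed start. KDM4B held 1 CACGTG, in which ACGTG reads on both strands, and 2 copies of GCGTG. KDM4C held 2 CACGTG and 1 GCGTG. The palindrome is also the E-box that other helix-loop-helix factors bind. The KDM3A, KDM4C and KDM5B windows lie inside the gene spans of GENCODE v29 (GRCh38), which list starts farther upstream. The KDM6B window lies upstream of the GENCODE gene. The other window of KDM6B, which spans the GENCODE start of the gene, held no match. Over the full windows of 300 bases, which run to 50 bases past the start, 12 of the 16 windows of the 10 genes (75.0%) held either core, and each gene had it in at least 1 window, also where the gene was not called in either comparison. Of all 35116 windows in the RefSeq table, 48.4% held it. The matches are a description of letters and not of binding.

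The groups differed in STK17B as labelled. STK17B measured 27.1 and 27.4 TPM in shControl, 12.7 and 10.9 TPM with sh1, 14.7 and 14.5 TPM with sh2, 28.2 and 31.5 TPM in Vector, 94.1 and 84.5 TPM with overexpression, and 24.9 and 22.4 TPM with the inhibitor. It fell with the hairpins and rose with overexpression, and transcripts of the added copy cannot be split from those of the resident gene. Each library had 16577 to 17354 genes above 0, and depth is unknown because TPM keep no read total. Plasma cell markers summed to 4795 to 7471 TPM over 9 genes. Most of the sum was JCHAIN (3239 to 5532 TPM), with XBP1 next (824 to 1280 TPM). CD38, of the same list, was only at 0.127 to 1.47 TPM and was highest in inhibitor replicate 2. The sum was 4795 to 5063 TPM with the inhibitor, 5230 to 5500 TPM with sh1 and 5836 to 5947 TPM with sh2. These ranges lay below that of shControl (6970 to 6988 TPM). Markers of other cell types were low: the sums over each list ranged from 0.189 to 1.23 TPM for B cells, 3.63 to 8.10 TPM for T and NK cells, almost all of it CD3E with CD3D and CD3G at 0, 1.02 to 5.10 TPM for myeloid cells, 0 to 1.09 TPM for erythroid cells and 1.05 to 8.004 TPM for stroma and endothelium. The last sum, over 6 genes of which CDH5 was at 0 in every library, was 4.43 to 8.004 TPM in shControl, 1.05 to 1.3 TPM with the inhibitor, 1.57 to 2.01 TPM with sh1 and 2.12 to 2.27 TPM with sh2. It was 5.03 to 5.33 TPM in Vector and 1.38 to 1.43 TPM with overexpression, so it was lower in each of these groups than in its control. Of the 6 genes only PECAM1 averaged at least 1 TPM (0.788 to 5.03 TPM over the libraries). COL1A1 (2.17 TPM) and COL1A2 (0.995 TPM) were highest in shControl replicate 1. The part of these group differences in the results was not tested.

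In shControl cells the order of levels was KDM3A (40.5 ± 0.20 TPM, mean ± SD, n = 2), KDM4B (26.5 TPM), KDM4A (19.0 TPM), KDM4C (13.4 TPM), KDM6A (7.97 TPM), TET3 (7.07 TPM), KDM6B (2.71 TPM), TET2 (1.97 TPM), KDM5B (1.84 TPM) and TET1 (1.16 TPM). TPM are scaled to transcript length, so levels of different genes can be set side by side. Of the neighbours in this order, TET2 and KDM5B overlapped between libraries. With the inhibitor KDM4A stood first, at 20.2 TPM, before KDM3A at 16.5 TPM and KDM4B at 15.6 TPM, of which the last pair overlapped. With overexpression KDM3A (83.6 TPM) and KDM4B (47.0 TPM) led, and KDM5B (5.65 TPM) and KDM6B (5.46 TPM) overlapped. KDM3A and KDM4B thus ran from the lowest levels with the inhibitor to the highest with overexpression, while KDM4A kept between 18.8 and 23.4 TPM over all 12 libraries.

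**Figure D1:**
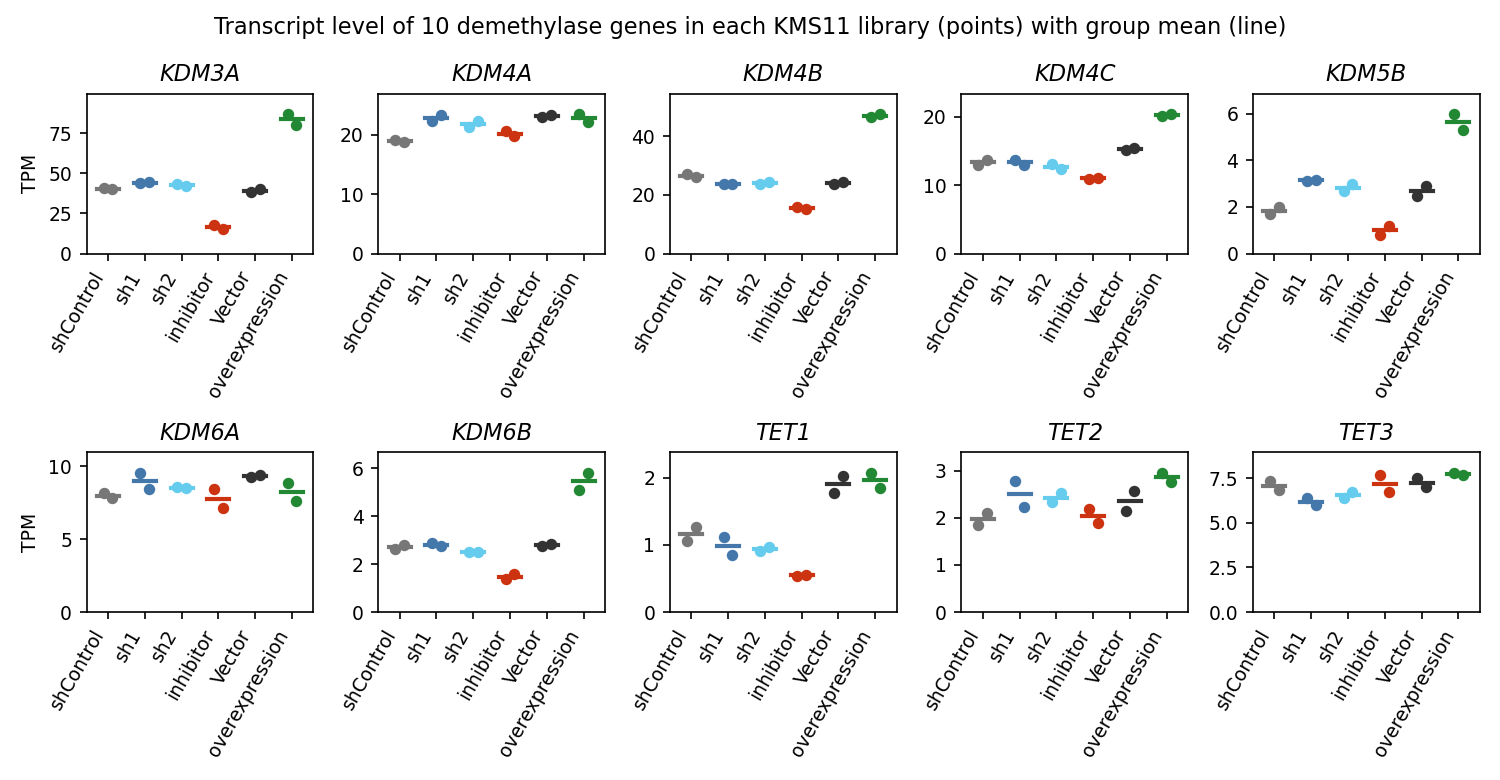
TPM (y axis, linear from 0, scaled per gene) of the 10 genes in each library of the 6 groups (x axis), with points for libraries and a line for the mean of 2. KDM3A, KDM4B, KDM4C, KDM5B and KDM6B were lowest in the inhibitor libraries and highest in the overexpression libraries, and KDM6A and TET3 were not.

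With the inhibitor 6 of the 10 transcripts were called lower than in shControl and none was called higher. KDM3A fell to 40.7% of its shControl level, TET1 to 47.0%, KDM5B to 53.7%, KDM6B to 54.7%, KDM4B to 58.9% and KDM4C to 82.5%, each from the group means in TPM. KDM4A, KDM6A, TET2 and TET3 stood at 97.5% to 107% of shControl. Over all tested genes 11.8% were called lower and 28.0% higher in this comparison. A call is an adjusted p (Benjamini-Hochberg over all tested genes) under 0.05 in a limma fit of log2(TPM + 1), a scale that shrinks the changes of genes with low levels. The median change was -0.37 over the 10 genes and 0.08 over all tested genes. In bulk RNA, fewer expressing cells and less RNA per cell cannot be told apart.

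Among the H3K9 demethylases, KDM3A measured 40.6 and 40.3 TPM in shControl and 17.6 and 15.3 TPM with the inhibitor. The groups lay far apart, and the log2 change was -1.25 (SE 0.061, limma adjusted p = 1.1e-06), which ranked 76 from the largest decrease among the tested genes. KDM4B measured 27.01 and 25.98 TPM in shControl and 16.0 and 15.2 TPM with the inhibitor, a log2 change of -0.73 (SE 0.043, limma adjusted p = 3.3e-06). KDM4C went from 13.03 and 13.73 TPM to 11.0 and 11.1 TPM, a smaller change of -0.26 (SE 0.050, limma adjusted p = 0.0032). KDM4A, a paralogue of KDM4B and KDM4C, measured 19.2 and 18.8 TPM in shControl and 20.7 and 19.7 TPM with the inhibitor. Its change of 0.09 (95% interval -0.02 to 0.20) was not past the threshold, and with the control columns exchanged it was -0.19 and past it. The 4 H3K9 demethylases together summed to 99.8 and 98.8 TPM in shControl and to 65.3 and 61.4 TPM with the inhibitor, so that the sum was lower in both inhibitor libraries.

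Among the others, KDM5B, the H3K4 demethylase, was low throughout, with 1.71 and 1.98 TPM in shControl and 0.816 and 1.16 TPM with the inhibitor (log2 change -0.52, SE 0.11, limma adjusted p = 0.0059). KDM6B, also named JMJD3, an H3K27 demethylase that responds to inflammatory signals, measured 2.65 and 2.78 TPM against 1.39 and 1.57 TPM (log2 change -0.58, SE 0.085, limma adjusted p = 7.0e-04). KDM6A, also named UTX, which is lost by mutation in part of myelomas, measured 8.14 and 7.80 TPM against 8.43 and 7.10 TPM. The KDM6A libraries of both groups overlapped, with a log2 change of -0.04 (95% interval -0.24 to 0.17). TET1 measured 1.06 and 1.26 TPM in shControl and 0.543 and 0.548 TPM with the inhibitor (log2 change -0.48, SE 0.11, limma adjusted p = 0.0084), and this call was lost without shControl replicate 2 (-0.42, adjusted p = 0.059). TET2, with 1.84 and 2.10 TPM against 2.18 and 1.89 TPM, and TET3, with 7.33 and 6.81 TPM against 7.65 and 6.74 TPM, overlapped between the groups. Their 95% intervals ran from -0.22 to 0.28 and from -0.15 to 0.19 on the log2 scale. In this fit 1 of 3 TET genes and 1 of 2 H3K27 demethylase genes thus fell. With a pseudocount of 0.1 the changes were -0.85 for KDM5B and -0.96 for TET1, and with the control columns exchanged -0.43 for KDM4C, -0.89 for KDM5B and -0.91 for TET1.

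STK17B overexpression raised 5 of the 10 transcripts and lowered none. KDM3A reached 2.13 times its Vector level in TPM, KDM5B 2.10 times, KDM4B 1.96 times, KDM6B 1.94 times and KDM4C 1.33 times. KDM4A, KDM6A, TET1, TET2 and TET3 did not pass the threshold. Over all tested genes 26.6% were called higher and 10.3% lower, and the median change was 0.30 over the 10 genes and 0.08 over all.

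KDM3A measured 38.5 and 39.9 TPM in Vector and 86.8 and 80.4 TPM with overexpression, a log2 change of 1.07 (SE 0.061, limma adjusted p = 3.6e-06). KDM4B measured 23.6 and 24.3 TPM against 46.6 and 47.4 TPM (0.94, SE 0.043, limma adjusted p = 8.3e-07). In both genes every overexpression library was above every library of all other groups. KDM4C measured 15.1 and 15.4 TPM against 20.1 and 20.4 TPM (0.39, SE 0.050, limma adjusted p = 3.8e-04). KDM4A, with 23.0 and 23.3 TPM against 23.4 and 22.1 TPM, overlapped between the groups (log2 change -0.03, 95% interval -0.14 to 0.08). The summed level of these 4 H3K9 demethylases was 100.3 and 102.9 TPM in Vector and 176.9 and 170.2 TPM with overexpression.

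KDM5B measured 2.46 and 2.91 TPM in Vector and 5.98 and 5.32 TPM with overexpression (0.85, SE 0.11, limma adjusted p = 4.5e-04). KDM6B measured 2.78 and 2.86 TPM against 5.11 and 5.82 TPM (0.76, SE 0.085, limma adjusted p = 1.7e-04). Both genes were thus higher in each overexpression library than in each Vector library. KDM6A measured 9.23 and 9.38 TPM against 8.81 and 7.63 TPM, and its change of -0.16 (95% interval -0.37 to 0.04) was not past the threshold, although it was with TPM rescaled by medians of ratios (-0.26) or quantile normalization (-0.30). TET1, with 1.78 and 2.03 TPM against 2.07 and 1.85 TPM, overlapped. TET2 (2.14 and 2.57 TPM against 2.95 and 2.77 TPM) and TET3 (7.52 and 6.98 TPM against 7.80 and 7.68 TPM) were higher in both overexpression libraries, with 95% intervals of -0.05 to 0.46 and -0.08 to 0.25 on the log2 scale. With the control columns exchanged KDM4A (0.25), TET1 (0.46) and TET2 (0.38) passed as well.

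**Figure D2:**
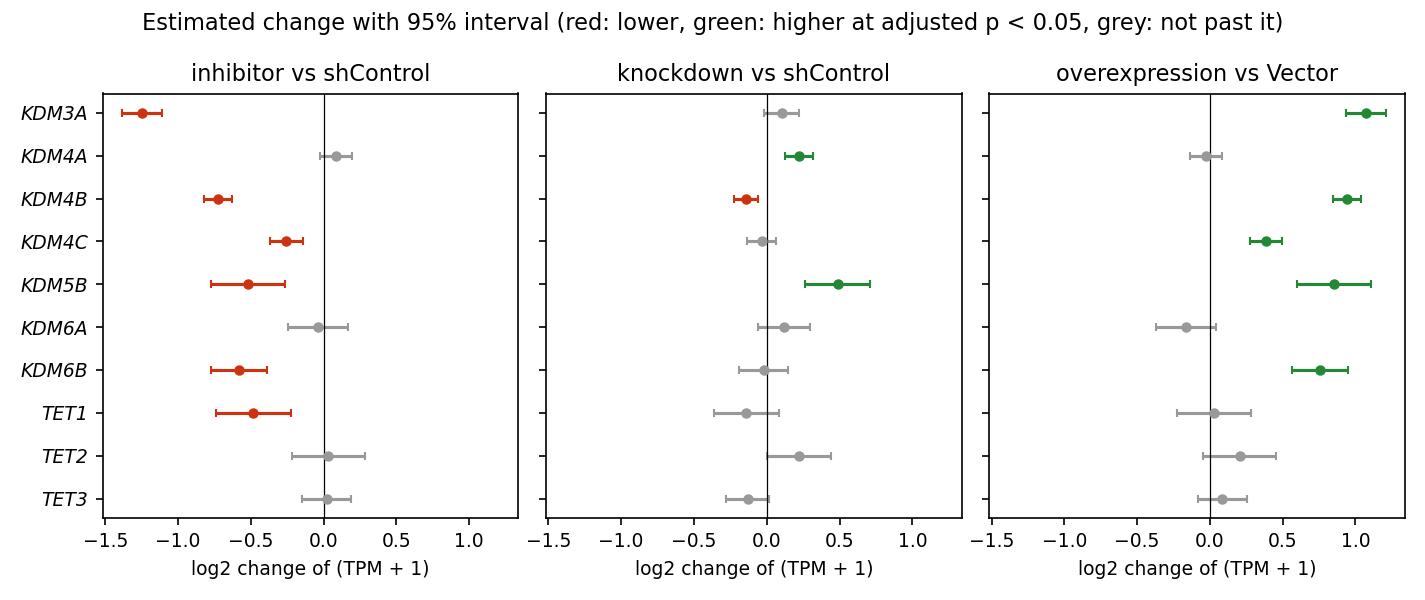
Log2 change of (TPM + 1) with its 95% interval (x axis) for the 10 genes (y axis) with the inhibitor and with the mean of both hairpins against shControl and with overexpression against Vector. With the inhibitor 6 points passed the threshold below 0, and with overexpression 5 passed above 0.

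The 5 genes KDM3A, KDM4B, KDM4C, KDM5B and KDM6B, fell with the inhibitor and rose with overexpression, in comparisons that share no library. Of the 12731 tested genes 536 (4.21%) did so. Those 536 genes were 35.6% of the genes called lower with the inhibitor and 15.9% of those called higher with overexpression. The difference between both effects, tested directly, passed the threshold for the same 5 genes and for TET1: KDM3A -2.32 (SE 0.086), KDM4B -1.67 (SE 0.061), KDM5B -1.37 (SE 0.16), KDM6B -1.34 (SE 0.12), KDM4C -0.64 (SE 0.071) and TET1 -0.51 (SE 0.16), on the log2 scale. In that test 17.6% of all tested genes were called lower and 17.8% higher, and none of the 10 was higher. The 5 genes were picked for their opposite calls in the same fit. Their passing here largely follows from those calls and is no further evidence. The TET1 difference had an adjusted p of 0.034 in limma and lost its call when any of 6 libraries was left out: either inhibitor replicate, either overexpression replicate, shControl replicate 2 or Vector replicate 1 (-0.44 to -0.56). It was also lost after quantile normalization (-0.31), and with the control columns exchanged KDM4A (-0.44) and TET2 (-0.52) passed too.

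The hairpins moved 3 of the 10 genes. In the mean of sh1 and sh2 against shControl, KDM4A and KDM5B rose and KDM4B fell, 2 higher and 1 lower of 10, beside 26.2% higher and 20.2% lower among all tested genes. The median change was 0.04 over the 10 genes and 0.03 over all. KDM4A measured 22.3 and 23.4 TPM with sh1 and 21.3 and 22.3 TPM with sh2 (0.22 for both hairpins together, SE 0.042, limma adjusted p = 0.0021). KDM5B measured 3.13 and 3.16 TPM with sh1 and 2.69 and 2.97 TPM with sh2, above both shControl libraries (0.49, SE 0.099, limma adjusted p = 0.0031). The sign of KDM5B was thus the same as with overexpression and opposite to that with the inhibitor. KDM4B measured 23.8 and 23.7 TPM with sh1 and 23.5 and 24.5 TPM with sh2, a small decrease (-0.14, SE 0.037, limma adjusted p = 0.011) that lost its call without shControl replicate 1 (-0.12). With the control columns exchanged all 3 lost their calls, with changes of -0.053 for KDM4A, 0.11 for KDM5B and -0.0044 for KDM4B, while KDM3A (0.14), KDM4C (-0.21) and TET1 (-0.57) passed.

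KDM3A measured 44.0 and 44.4 TPM with sh1 and 43.4 and 42.1 TPM with sh2. All 4 libraries lay above shControl, and the change of 0.10 (95% interval -0.02 to 0.22) did not pass the threshold, although it did in a fit of only the groups compared (limma adjusted p = 0.04). KDM4C (-0.04, 95% interval -0.13 to 0.06) and KDM6B (-0.02, 95% interval -0.19 to 0.14) overlapped with shControl. KDM6A (0.12), TET1 (-0.14), TET2 (0.22) and TET3 (-0.13) were also not past the threshold, with adjusted p between 0.091 and 0.28. Taken singly, sh1 called the same 3 genes (background 23.7% higher and 21.3% lower), and so did sh2 (22.0% higher and 13.4% lower). Without single libraries the sh2 calls were less stable: KDM4A lost its call without sh2 replicate 2 and without either shControl replicate, KDM5B without sh2 replicate 2 or shControl replicate 1, and KDM4B without each of the 4 libraries. For sh1 the KDM4B call was lost without sh1 replicate 2 or shControl replicate 1. A fit of only the groups compared lost KDM4B for either hairpin, and quantile normalization lost KDM4A for sh2 (0.13).

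None of the 10 genes differed between sh2 and sh1 in limma, and none had an unadjusted p under 0.05, beside 1.16% of all tested genes called higher and 0.385% lower. The largest difference was that of KDM6B (-0.12, 95% interval -0.31 to 0.07). Set against the mean of the hairpins, the inhibitor had lower levels of 7 genes and higher levels of none (background 21.6% lower and 30.9% higher). KDM3A differed by -1.35 (SE 0.053), KDM5B by -1.01 (SE 0.099), KDM4B by -0.58 (SE 0.037), KDM6B by -0.56 (SE 0.074), TET1 by -0.34 (SE 0.098), KDM4C by -0.22 (SE 0.043) and KDM4A by -0.14 (SE 0.042), on the log2 scale. STK17B itself was higher with the inhibitor than with the hairpins (0.80, SE 0.073). The KDM4A call was lost without inhibitor replicate 2, sh1 replicate 2 or sh2 replicate 2, and the TET1 call without either inhibitor replicate. A fit of only the groups compared also lost KDM4A, and quantile normalization TET1 (-0.21).

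The knockdown effect minus the overexpression effect was below 0 for KDM4B (-1.09, SE 0.057), KDM3A (-0.97, SE 0.081), KDM6B (-0.78, SE 0.11) and KDM4C (-0.42, SE 0.066) and above 0 for KDM4A (0.25, SE 0.065). All tested genes gave 18.5% lower and 11.4% higher calls there. The KDM5B difference of -0.36 (SE 0.15, limma adjusted p = 0.099) did not pass. The KDM4A call was lost without overexpression replicate 2, shControl replicate 2 or Vector replicate 2, and its sign turned with the control columns exchanged (-0.30).

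The controls themselves differed. Vector was above shControl in KDM4A (0.28), KDM4C (0.18), KDM5B (0.37) and TET1 (0.43) and below it in KDM4B (-0.14), on the log2 scale, 4 higher and 1 lower beside 21.4% and 7.86% of all tested genes. KDM4A with the inhibitor was thus above both shControl libraries and below both Vector libraries. Most of these calls were lost without single libraries: KDM4B without any of the 4, KDM4C without shControl replicate 1 or either Vector replicate, KDM5B without either shControl replicate or Vector replicate 2, and TET1 without shControl replicate 1 or Vector replicate 2. Quantile normalization lost KDM4C (0.05), KDM5B (0.19) and TET1 (0.25), and median-of-ratios scaling lost KDM4C (0.09) and KDM5B (0.31). Of the 5, only KDM4A also passed in a fit of Vector and shControl alone. The differences of KDM3A (-0.04) and KDM6B (0.04) between the controls were small beside their changes with the inhibitor and with overexpression.

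**Figure D3:**
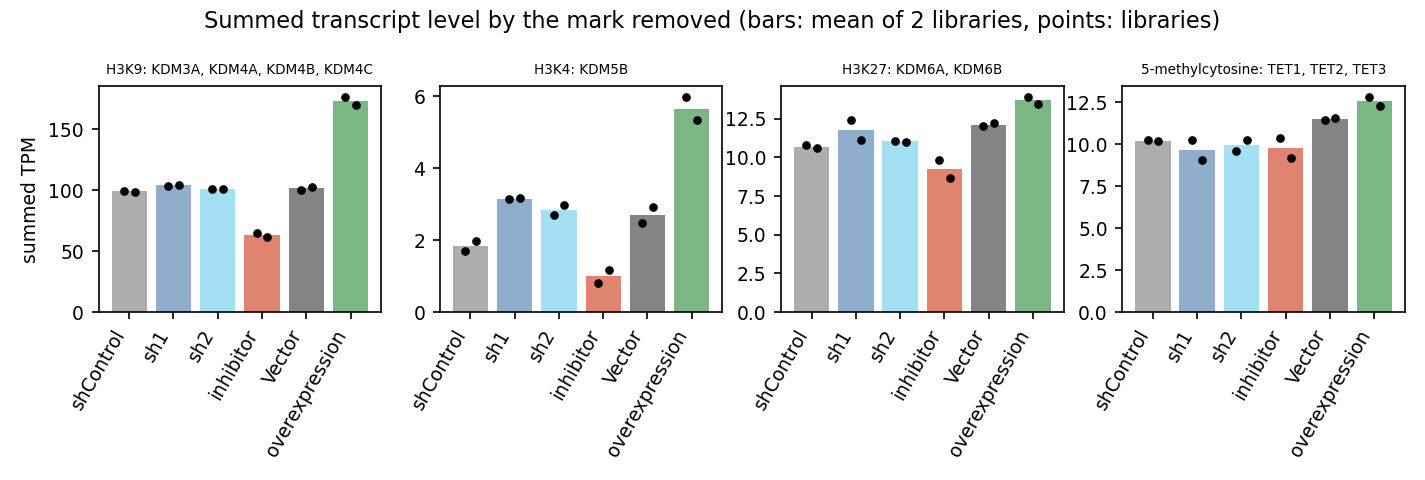
Summed TPM (y axes, from 0, scaled per panel) in the 6 groups (x axis) of those of the 10 genes that act on H3K9, H3K4, H3K27 and 5-methylcytosine. Bars give the mean of 2 libraries and points give libraries. The H3K4 panel holds KDM5B alone. Demethylases outside the 10, such as KDM5C (49.4 to 67.6 TPM), a paralogue of KDM5B, are not in the sums. The H3K9 sum ran from 63.3 TPM with the inhibitor to 173.5 TPM with overexpression, and the TET sum from 9.67 TPM with sh1 to 12.6 TPM with overexpression.

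The 14 further iron- and 2-oxoglutarate-dependent genes listed here as histone demethylases, with RIOX1, RIOX2, JMJD6 and KDM8 among them, were called in both directions. With the inhibitor 4 were higher and 3 lower (median -0.02), beside 28.0% and 11.8% of all tested genes. With the hairpins 1 was higher and 3 lower (median 0.04), beside 26.2% and 20.2%. With overexpression 3 were higher and 1 lower (median 0.04), beside 26.6% and 10.3%. These counts depended on the scaling: with the inhibitor 1 was higher and 3 lower under median-of-ratios scaling and 2 and 3 after quantile normalization, and with overexpression 2 were higher and 3 lower under either. With the control columns exchanged 5 were higher and 6 lower with the inhibitor, 3 and 5 with the hairpins and 7 and 2 with overexpression. KDM7A, which acts on H3K9 and H3K27, had the largest changes of this list: -0.76 with the inhibitor (SE 0.064, limma adjusted p = 3.2e-05), -0.24 with the hairpins (SE 0.055, limma adjusted p = 0.0068) and 0.70 with overexpression (SE 0.064, limma adjusted p = 5.5e-05). KDM5C, singled out after its values were seen as a paralogue of KDM5B, changed by -0.22 and 0.22 with the inhibitor and with overexpression. RIOX1 (0.39) and KDM8 (0.32) rose with the inhibitor, the latter call lost under median-of-ratios scaling, KDM2A rose with the hairpins (0.22), and PHF8 fell with them (-0.21). The flavin-dependent demethylases KDM1A and KDM1B need oxygen but no iron. KDM1A fell with the hairpins (-0.30) and rose with overexpression (0.14), a call lost under both other scalings, and neither of the pair passed the threshold with the inhibitor in this fit. There 1 of the pair was lower under each other scaling, and 2 with the control columns exchanged.

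Methyltransferases that write the same marks were called in mixed directions. Over all tested genes 28.0% were called higher and 11.8% lower with the inhibitor. The shares were 26.2% and 20.2% with the hairpins and 26.6% and 10.3% with overexpression. Among 6 H3K9 methyltransferases 3 were higher and none lower with the inhibitor, 1 higher and 2 lower with the hairpins, and 3 higher and 1 lower with overexpression. The last counts were 0 higher and 2 lower under median-of-ratios scaling, 0 and 1 after quantile normalization and 2 and 2 with the control columns exchanged. SETDB1 was higher in all 3 comparisons (0.25, 0.30 and 0.14 with the inhibitor, the hairpins and overexpression), the last lost under both other scalings and the first pair with the control columns exchanged (-0.045 and 0.00066). SUV39H1 rose with the inhibitor (0.26) and fell with the hairpins (-0.22). Of 4 Polycomb genes for H3K27, 1, 2 and 2 were higher in these comparisons and none lower: EED rose with the inhibitor (0.26), EZH1 rose with the hairpins (0.42) and with overexpression (0.44), and EZH2 rose with overexpression (0.20). The EED call was lost after quantile normalization, the EZH2 call under median-of-ratios scaling and the EZH1 call with the hairpins after exchange of the control columns (-0.0081). Under both other scalings 1 was higher and 1 lower with the hairpins. Of 6 H3K4 methyltransferases none passed with the inhibitor in limma, with 2 of 6 at an unadjusted p under 0.05, while 1 was lower with the hairpins and 2 with overexpression. With the inhibitor 1 was lower under each other scaling, and 2 were higher and 3 lower with the control columns exchanged, as with the hairpins. KMT2D, a partner of KDM6A, was the 1 with the hairpins (-0.35). NSD2, the H3K36 methyltransferase that t(4;14) places under immunoglobulin control, was high at 127.7 to 178.2 TPM and changed by 0.17, -0.10 and 0.11, of which the first and the last lost their calls under another scaling. Of its list of 5, 1 was higher with the inhibitor, 1 lower with the hairpins and 1 higher with overexpression, and the last count was 0 under median-of-ratios scaling and 1 higher and 2 lower after quantile normalization.

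**Figure D4:**
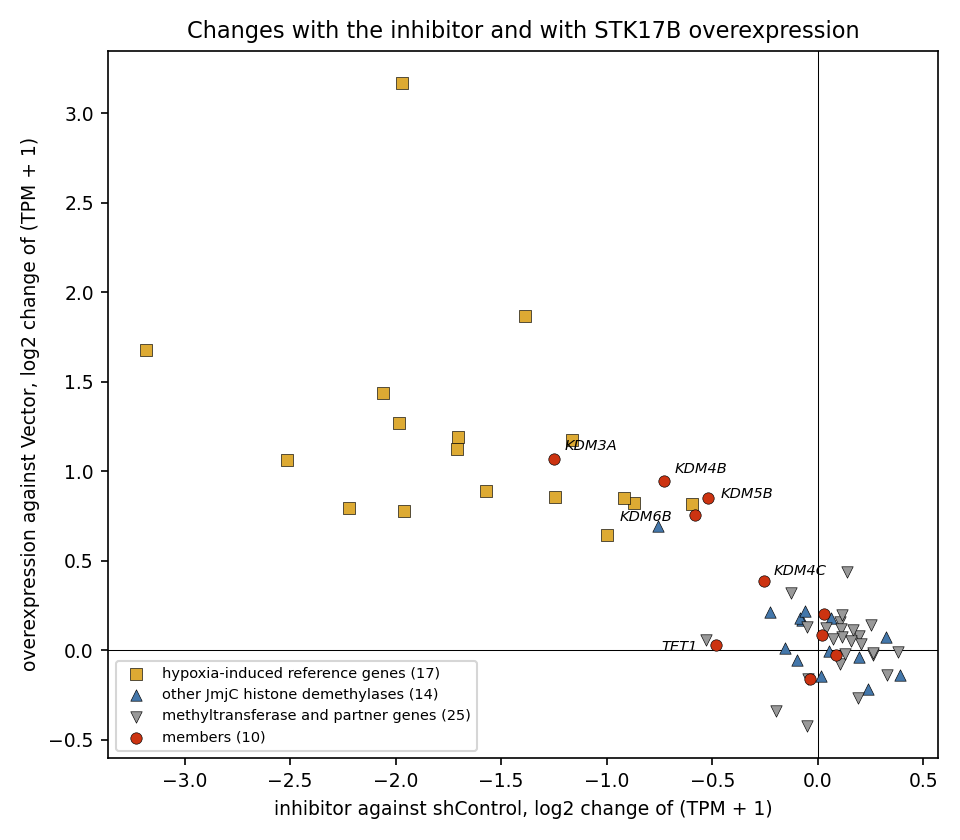
Log2 change of (TPM + 1) with the inhibitor against shControl (x axis) and with overexpression against Vector (y axis). Shown are the 10 genes, 14 further genes listed as JmjC histone demethylases, 25 methyltransferase and partner genes and 17 hypoxia-induced genes. All 17 hypoxia-induced genes and 5 of the 10 genes lie at the upper left, past the threshold in both comparisons.

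Genes that low oxygen is known to induce served as a reference. Among all tested genes 11.8% were called lower with the inhibitor, 20.2% lower with the hairpins and 26.6% higher with overexpression. Of 17 tested, 17 fell with the inhibitor (-3.18 for PFKFB4 to -0.59 for MXI1, median -1.70), and 17 rose with overexpression (0.64 for LDHA to 3.17 for CA9, median 1.06). With the hairpins 14 fell and 1 rose (median -0.36), and with the control columns exchanged 9 fell and 1 rose (median -0.16), while the counts of 17 held. KDM3A at -1.25 and KDM4B at -0.73 with the inhibitor lay inside the range of these genes. KDM6B stood at -0.58, KDM5B at -0.52 and KDM4C at -0.26, of which the first pair are low genes and reached -0.83 and -0.85 with a pseudocount of 0.1. With the hairpins the largest called changes of the list were those of ADM (-1.50) and ANKRD37 (-1.23) on the log2 scale, and KDM3A stood at 0.10. Of the same list ALDOC stood at 0.06, not past the threshold, and MXI1 was the 1 that rose (0.135). The MXI1 call was lost under both other scalings and with the control columns exchanged. The list was assembled with earlier results of these data known, so its direction is no independent evidence.

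Of the HIF hydroxylases, which belong to the same enzyme class and mark HIF for destruction or silence it, 4 of 5 could be tested. EGLN1, the main HIF prolyl hydroxylase, fell with the inhibitor (-0.64, SE 0.050, limma adjusted p = 1.9e-05), stood at 0.01 with the hairpins and rose with overexpression (0.88, SE 0.050, limma adjusted p = 3.4e-06). HIF1AN, the asparaginyl hydroxylase, rose in all 3 comparisons (0.33, 0.38 and 0.22), the last not after quantile normalization. Of the 4, 1 was higher and 1 lower with the inhibitor, 3 were higher with the hairpins and 3 with overexpression. Of the 3 with the hairpins, EGLN2 lost its call under median-of-ratios scaling (0.11). P4HTM turned to a called decrease there with the control columns exchanged (-0.12). All tested genes gave 28.0% higher and 11.8% lower with the inhibitor, 26.2% higher with the hairpins and 26.6% higher with overexpression. EGLN3 was at most 0.370 TPM.

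Of the 10 genes, 4 met the level of 5 TPM set for a search of like patterns, with a call in at least 1 main comparison. Over the 12 libraries, KDM3A was most like MIR210HG (Pearson r 0.992), from which the microRNA miR-210 is processed, BNIP3L (0.990), a mitophagy receptor, and PDE4D (0.988), a cyclic AMP phosphodiesterase. MIR210HG stood at 11.6 TPM in shControl, 0.957 TPM with the inhibitor and 41.7 TPM with overexpression. KDM4B was most like NDRG1 (0.993), CDKN1C (0.992) and GBE1 (0.992), a glycogen branching enzyme. KDM4C was most like LBH (0.984), MLLT6 (0.982) and TXNIP (0.982), and KDM4A was most like SCPEP1 (0.959), MVP (0.942) and YBEY (0.937). The 12 points of each r are 6 pairs of libraries, and 9010 genes were searched.

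Genes that set the supply of 2-oxoglutarate or of its competitors, succinate, fumarate and 2-hydroxyglutarate, moved in mixed directions. Of 17, 7 were higher and 2 lower with the inhibitor, 6 and 6 with the hairpins and 3 and 6 with overexpression. The shares of all tested genes were 28.0% and 11.8%, 26.2% and 20.2%, and 26.6% and 10.3% in the same order. With the inhibitor the counts were 4 and 3 under either other scaling and 7 and 5 with the control columns exchanged, and with overexpression 2 and 10 under median-of-ratios scaling and 6 and 5 with the exchange. IDH1, which makes 2-oxoglutarate in the cytosol, fell with the inhibitor (-0.42) and rose with the hairpins (0.44). IDH3A, a subunit of the mitochondrial enzyme, rose with the inhibitor (0.27, a call lost after quantile normalization) and fell with the hairpins (-0.71). OGDH, which consumes 2-oxoglutarate, rose in both (0.39 and 0.39). Median changes of the 17 were 0.11, -0.02 and -0.04.

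On the DNA side, the TET genes stood at 9.07 to 12.8 TPM in sum. For the counts that follow, all tested genes gave 28.0% higher and 11.8% lower calls with the inhibitor. They gave 26.2% and 20.2% with the hairpins and 26.6% and 10.3% with overexpression. Of 8 genes that act with TET in DNA demethylation, 3 were higher and 1 lower with the inhibitor, 1 and 1 with the hairpins and 4 and 1 with overexpression. With the inhibitor the counts were 1 and 1 under either other scaling and 2 and 5 with the control columns exchanged, and with overexpression 2 and 2 under median-of-ratios scaling and 2 and 1 after quantile normalization. CXXC4, an inhibitor of TET2, rose in all 3 (0.28, 0.41 and 0.48), but with the control columns exchanged its sign turned in the first pair (-0.26 and -0.13). TDG, the glycosylase that removes oxidised cytosines, fell with the hairpins (-0.18, a call lost with the control columns exchanged) and with overexpression (-0.23). Of the 4 DNA methylation genes, 2 were higher and 1 lower with the inhibitor, 2 were lower with the hairpins and 1 was higher with overexpression, where 0 were higher and 1 lower under either other scaling. DNMT3B fell with the inhibitor (-0.53, SE 0.062, limma adjusted p = 1.9e-04) and with the hairpins (-0.34), UHRF1 rose with the inhibitor (0.33), and DNMT1 rose with the inhibitor (0.16, a call lost under both other scalings) and fell with the hairpins (-0.07). Of 5 further nucleic acid demethylases of this class, 1 was higher and 1 lower with the inhibitor, 2 were lower with the hairpins, and 1 was higher and 1 lower with overexpression. ALKBH5, an RNA demethylase, had the same signs as KDM4B in all 3 comparisons (-0.27, -0.25 and 0.42, all past the threshold). Of 9 partners in the complex of KDM6A, 5 were higher with the inhibitor and none lower, ASH2L (0.36) among them, 1 was higher and 4 lower with the hairpins, and 3 were higher and 1 lower with overexpression. With overexpression 0 were higher and 3 lower under either other scaling, and with the inhibitor 3 were higher under median-of-ratios scaling, 2 after quantile normalization, and 5 higher and 2 lower with the control columns exchanged.

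In GENCODE v29 coordinates on GRCh38, KDM3A at chr2:86440647-86492716, KDM4B at chr19:4969113-5153595, KDM4C at chr9:6720863-7175648, KDM5B at chr1:202724495-202809470 and KDM6B at chr17:7839904-7854796 are the 5 genes called in opposite directions, all protein coding. KDM4A (chr1:43650158-43705515) is overlapped on the opposite strand by KDM4A-AS1, which was listed at 0.658 to 1.67 TPM beside 18.8 to 23.4 TPM for KDM4A. The 10 genes together summed to 122.5 and 121.5 TPM in shControl, 86.3 and 80.4 TPM with the inhibitor, 129.6 and 127.9 TPM with sh1, 124.7 and 125.4 TPM with sh2, 126.2 and 129.7 TPM in Vector and 209.6 and 201.3 TPM with overexpression.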

How the data were processed

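RNA was extracted with RNeasy, selected with oligo(dT), primed with random N6 and sequenced stranded on DNBSEQ, per the labels' protocols. The authors deposited TPM values, 1 per gene and library. Tools listed in the submitters' processing notes, without roles, are RSEM 1.3.1, Bowtie2 2.3.4.3, HISAT and DESeq2 1.4.5, and the build is GRCh38.p13. Read totals are unknown, so no count model was fitted.

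Genes were tested on log2(TPM + 1) if 2 or more of the 12 libraries reached 1 TPM. The limma package (3.58.1, R 4.3.3) fitted 6 group means (eBayes with trend) and was tested on simulated data. Each of 10 comparisons was adjusted by Benjamini-Hochberg, with a threshold of 0.05. Permutation over 2 libraries a group could not reach it.

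Members and gene lists were chosen with earlier results of these data known. Named genes are the members, STK17B, NSD2, EZH2, DNMT1, the 3 largest called changes of each list with the inhibitor and with the hairpins (not all are printed), range ends of the hypoxia list, and the 3 genes most like each called member of at least 5 TPM. RIOX1 and NSD2 stand in the table under older symbols. Alternatives were pseudocounts of 0.5 and 0.1, other filters, scalings, variance models and samples, a replicate block, exchanged control columns and each library left out.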

Additional observations from a re-analysis of the deposited data

How the results depend on the processing

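The fall of KDM3A, KDM4B, KDM4C, KDM5B and KDM6B with the inhibitor and their rise with overexpression passed the threshold under every alternative run in which the gene was tested. KDM5B and KDM6B met the filter at 5 TPM only through their overexpression libraries, so that run is no further evidence for these genes. Of 1610 alternative values of single members, 1513 kept their side of the threshold, 63 lost the call and 26 gained one. The 1513 include 51 uncalled values that changed sign, the largest at 0.33 in size. A further 8 turned sign with a call in the main fit or in the alternative. The 8 all came from exchanging the control columns: KDM4A in the inhibitor comparison (-0.19), with the hairpins (-0.053, sh1 -0.021, sh2 -0.085), with overexpression (0.25), in the knockdown effect minus the overexpression effect (-0.30) and in the inhibitor effect minus the overexpression effect (-0.44), and KDM4B with sh2 (0.0033). The listed genes were examined under other scalings and the exchange after the data were seen. Where either fit gave a call, the exchange turned the sign of 7 listed genes with the inhibitor, 13 with the hairpins and 6 with overexpression. Among these were CXXC4 (inhibitor -0.26, hairpins -0.13), EZH1 (inhibitor -0.29, hairpins -0.0081), SETDB1 (inhibitor -0.045), PFKFB4 (hairpins 0.088), UHRF1 (hairpins 0.15) and OGDH (overexpression 0.25). The cause was not tested.

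Numbers of the 10 genes called also moved. With the exchange, 1 was higher and 2 lower with the hairpins and with sh1, 0 higher and 2 lower with sh2, 8 higher with overexpression, and 0 higher and 8 lower in the knockdown effect minus the overexpression effect. TET1 (0.46), TET2 (0.38) and KDM4A were the genes added with overexpression. Quantile normalization gave 2 lower with the hairpins, 1 higher and 2 lower with sh2, 1 lower with overexpression, 1 higher between the inhibitor and the hairpins, 1 higher between Vector and shControl and 2 higher in the knockdown effect minus the overexpression effect. The median of ratios gave 2 higher there, 1 lower with overexpression and 2 higher in Vector. A fit of only the groups compared gave 1 higher and 0 lower in Vector and 0 lower with sh1 and with sh2. A filter at 5 TPM gave 2 higher in Vector and left fewer genes to test, and robust eBayes gave 0 lower there. Leaving out 1 library gave these ranges of numbers: 2 to 3 higher and 0 to 1 lower with the hairpins, 0 to 1 lower with sh1, 0 to 2 higher and 0 to 0 lower with sh2, 1 to 3 higher and 0 to 0 lower in Vector, 0 to 1 higher between the inhibitor and the hairpins, and 0 to 1 higher in the knockdown effect minus the overexpression effect.

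Replicate numbers did not pair the libraries: over 15 pairs of groups the deviations of same-numbered libraries correlated by -0.10 to 0.14. Under the replicate block the call of KDM4B between Vector and shControl was lost (-0.14, adjusted p = 0.052 in limma, so 0 lower). Quantile normalization shifted the median of all genes by just over 0.1 with overexpression, from 0.081 to -0.022. A pseudocount of 0.1 gave larger changes for the low genes with the inhibitor, -0.85 for KDM5B and -0.96 for TET1. The exchange moved KDM4C to -0.43, KDM5B to -0.89 and TET1 to -0.91 there. Exchange only turns the sign between Vector and shControl. Depth is unknown, and with 2 libraries a group the precision of genes near 1 TPM is limited.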

Other observations

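Outside the 10 genes, D2HGDH, which encodes the enzyme that clears D-2-hydroxyglutarate, a metabolite known to compete with 2-oxoglutarate in these demethylases, was chosen after its values were seen. It measured 4.62 and 3.86 TPM in Vector and 9.25 and 11.0 TPM in overexpression, so both overexpression libraries lay above both Vector libraries. The difference was 1.09 on the log2(TPM + 1) scale (SE 0.12, limma adjusted p = 1.6e-04). In the inhibitor libraries it measured 4.92 and 4.85 TPM against 5.08 and 4.36 TPM in shControl, a difference of 0.04 (95% interval -0.23 to 0.32, limma adjusted p = 0.81).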
